A study of Mus musculus with 6 samples.

Results

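The genes that encode the protein components of the cytosolic ribosome were followed in RNAseq libraries of cells sorted as GFP+ neural crest cells (NCCs). They were taken by symbol, as protein-coding genes named Rpl, Rplp, Rps or Rpsa in GENCODE M21 with pseudogenes and the Rps6k kinases left out, and this gave 84 of the 46983 genes of the table, 52 of the large (60S) and 32 of the small (40S) subunit. GFP+ NCCs had been sorted at E11.25 from 3 control and 3 BAF155/170-deficient embryos. All 6 carried 1 copy each of Wnt1Cre and the Rosa26 mTmG reporter (both over +). Control embryos were flox/+ at BAF155 and also flox/+ at BAF170, so that their NCCs were heterozygous for both deletions, and BAF155/170-deficient embryos were flox/flox at BAF155 and flox/flox at BAF170. Wnt1 is also active in the dorsal neural tube, whose cells keep the GFP label, and the labels do not say whether the samples of a group came from separate litters, so the p-values measure the spread between these samples only. Libraries held 8191219 to 19808620 counts, and the 3 controls were the 3 shallowest of the 6.

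The ribosome joins amino acids in the order set by the mRNA. Its small subunit reads the mRNA and its large subunit forms the peptide bond, and each subunit is built in the nucleolus from ribosomal RNA and a single copy of nearly every ribosomal protein, so that the cell makes these proteins in matched amounts. Their mRNAs are abundant, begin with a run of pyrimidines (the TOP motif) that lets mTOR set their translation, and have been copied back into the genome many times as processed pseudogenes. Mutations in several of the genes cause Diamond-Blackfan anaemia, in which craniofacial defects occur, and mouse mutants of some have skeletal or pigment defects.

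The coding sequences of some of these genes cannot be told apart from those of their copies, and they are given first because every level below rests on them. Coordinates are on GRCm38, sequences run 5′ to 3′ in the sense of the gene, and letters in capitals mark bases that differ between gene and copy. The coding sequence of Rps27 (chr3:90212725-90213615, minus strand, 4 exons) encodes a zinc-finger protein of the small subunit.
Rps27: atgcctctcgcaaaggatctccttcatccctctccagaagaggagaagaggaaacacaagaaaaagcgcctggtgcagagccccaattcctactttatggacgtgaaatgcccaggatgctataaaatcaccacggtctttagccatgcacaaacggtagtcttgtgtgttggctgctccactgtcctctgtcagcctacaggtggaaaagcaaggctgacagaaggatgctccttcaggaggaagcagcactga
The intron-less Rps27rt (chr9:114982453-114982707, minus strand), annotated as protein-coding, had the same 255 bases with 0 differences. Rpl38, the gene of the Tail-short mouse, whose axial skeleton is malformed, lies at chr11:114668812-114672290 (plus strand, coding part of 4 exons).
Rpl38: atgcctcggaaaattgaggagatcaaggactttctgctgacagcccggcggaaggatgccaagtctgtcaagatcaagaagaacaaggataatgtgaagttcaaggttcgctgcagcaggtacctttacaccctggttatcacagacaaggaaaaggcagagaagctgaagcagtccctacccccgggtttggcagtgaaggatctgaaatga
The processed pseudogene Rpl38-ps2 (chr6:140746960-140747172, minus strand) had the same 213 bases, again with 0 differences. Rpl36, which had the highest fold change of the family, and its pseudogene Rpl36-ps12 differed at 3 of 318 bases, and the first 150 bases of each (chr17:56613588-56613963, plus strand, and chr6:108140333-108140482, minus strand) hold 2 of these differences.
Rpl36: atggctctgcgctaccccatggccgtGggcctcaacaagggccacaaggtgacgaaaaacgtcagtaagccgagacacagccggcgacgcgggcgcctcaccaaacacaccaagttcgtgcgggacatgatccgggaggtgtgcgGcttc
Rpl36-ps12: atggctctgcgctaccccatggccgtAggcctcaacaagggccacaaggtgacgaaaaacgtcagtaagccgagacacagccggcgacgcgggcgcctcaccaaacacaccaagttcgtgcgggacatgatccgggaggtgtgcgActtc
Such copies were the rule in this family. A copy was counted here where an annotated pseudogene or a predicted or Rp-named gene held at least 20% of the 50-base words of a member's main transcript, and 60 of the 84 genes had at least 1 such copy among the rows of the table, 226 rows in all. The row counted for Rpl13a, Gm45713, is annotated over the same stretch of chr7 as part of Rpl13a and is no separate copy, but it is kept in these numbers. The coding sequence of each of these 60 genes was placed, with no gap allowed, on the copy with the most counts. The annotated copy covered all of it in 43 cases, was at least 98% identical in 42 of the 43, and was identical at every base in 15. Copies annotated as ending within the coding sequence fall outside the 43. Over the bases covered, 55 of the 60 were at least 98% identical. The sources do not give how reads that map to several places were counted or which strand setting was used, so the counts of these genes are uncertain wherever a read could have come from a copy.

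The counts on the copies were of the same order as those on the genes. The 84 genes held 0.651%, 0.607% and 0.726% of the counts of the controls and 0.754%, 0.709% and 0.844% of those of the BAF155/170-deficient libraries, while the copies held between 0.428% and 0.552%. In 38 genes the copies together had more counts than the gene itself. Divided by transcript length, Rps27 had 7.48 CPM per kb (CPM are counts scaled to a library size common to all samples, after TMM normalization) and Rps27rt 271 CPM per kb as means over the 6 libraries. The same contrast held for Rpl38 with 3.79 CPM per kb against 342 for Rpl38-ps2 and for Rpl5 with 2.76 against 151 for Gm15500. A low value of such a row therefore does not show a low level of the mRNA.

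**Figure D1:**
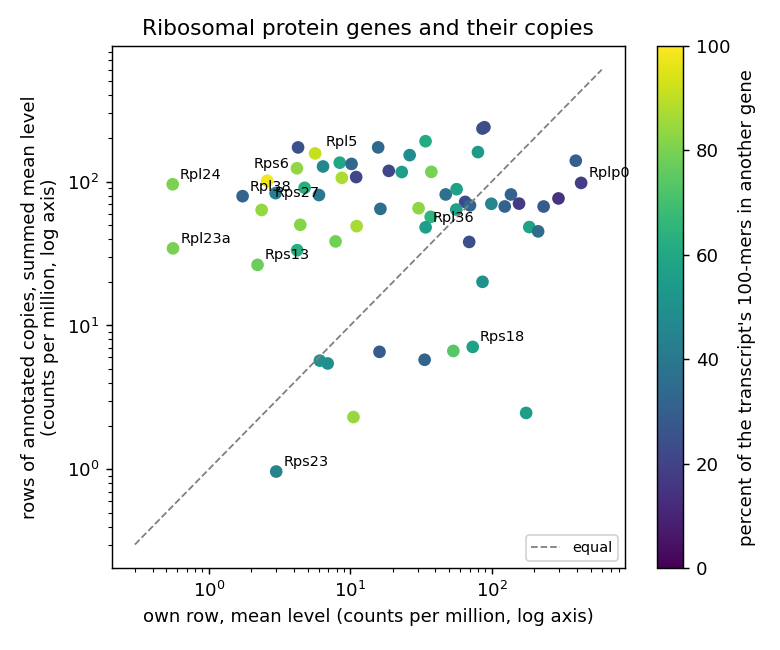
Mean level of the gene's own row (horizontal axis) against the summed mean level of its annotated copies (vertical axis), both in CPM on log axes, for the 60 genes with a copy in the table. Each point is a gene, its colour gives the percent of the 100-base words of its transcript that also occur in another gene, the dashed line marks equal levels, and 38 genes lie above the line.

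Over the 24 genes with less than 20% of their 100-base words in another gene the median level was 116 CPM per kb. It was 37.4 CPM per kb over the 29 genes with 20% to 50% and 15 CPM per kb over the 31 genes with 50% or more. When the counts of the copies were added to their gene, an alternative chosen after the data were seen, the last 2 medians became 174 and 136 CPM per kb. Across the 84 genes the shared percentage and the level per kb had a Spearman rho of −0.41, and −0.09 with the copies added, which is a description across genes of the same 6 libraries and not a test. The main transcript was the longest of those ranked equally in the annotation. Some are long (Rps15a 5179, Rps20 3706 and Rpl18 2989 bases, all in the class under 20%). A longer transcript lowers the level per kb and can lower the shared percentage. Per kb, the highest level was that of Rplp1 with 788 CPM per kb, followed by Rps15 with 478, Rps9 with 395 and Rps14 with 378. The transcripts of Rps3, Rps21 and Rps27l were among the 8 that shared no 100-base word with another gene.

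Before the fold changes, the libraries were checked against their labels. Smarcc1, which encodes BAF155, had 42.0, 54.9 and 35.0 CPM in controls and 29.3, 26.3 and 24.4 CPM in BAF155/170-deficient libraries, with no overlap (log2 fold change −0.71, SE 0.16, adjusted p = 0.0676, edgeR). Smarcc2, which encodes BAF170, differed by −0.11 (SE 0.06, adjusted p = 0.251). The 12 macrophage markers, which include Csf1r, C1qa and Tyrobp, summed to between 12095 and 14022 CPM in controls and between 14154 and 15438 CPM in BAF155/170-deficient libraries. The 63 embryonic markers of crest, neural and neural tube cells summed to between 419 and 716 CPM in controls and between 292 and 378 CPM in BAF155/170-deficient libraries, and 15 of them were under 1 CPM. In each library the macrophage sum was thus 16.9 to 52.9 times the embryonic sum, which goes against the label of the samples as NCCs. The median log2 fold change was 0.19 over the 12 macrophage markers and −0.98 over the 49 embryonic markers tested. The ribosomal protein genes are expressed in both kinds of cells, so a gain of RNA from 1 kind and a change within the other cannot be told apart in these bulk samples, nor can fewer cells of a type and less RNA per cell.

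Few ribosomal protein genes differed between the control and BAF155/170-deficient libraries labelled as NCCs. Of the 80 genes that passed the filter on low counts, 6 rose at an adjusted p of at most 0.1 and 0 fell, while among all 13961 genes tested 4.18% rose and 7.75% fell by the same rule. The 6 make up 7.5% of the 80. At an unadjusted p under 0.05 there were 20 higher and 1 lower, beside 12.1% and 15.2% of all genes. Of these 20, 18 had at least 50 CPM, a level at which 48.3% of all genes were higher and 3.69% lower by this rule. By the stricter rule of the study's methods, which also asks for a change of 0.58 or more on the log2 scale in either direction and for 2 CPM or more on average, 0 of the 80 rose and 0 fell, beside 0.0573% and 4.88% of all genes. These shares are those of the edgeR fit, and the paper's limma fit with the same thresholds called more genes in each direction. Among the 6 genes were Rps14, Rps2, Rps4x, Rpl18 and Rps3a1, and they are named because of their values. Leaving out single libraries changed this number. With control replicate 1 left out 0 rose, as with control replicate 2 or with deficient replicate 3 left out, but in these fits 0 of all genes rose. With deficient replicate 1 left out 1 rose (1.25% of the 80, beside 3.83% of all genes), and with control replicate 3 left out 15 rose (18.8%, beside 11.9%). With deficient replicate 2 left out 16 rose (20%, beside 0.789%). In each of the last 2 fits 4 of the 6 were among those that rose. With the counts of the copies added 4 of the 6 still rose, and with the trend of fold change on exon length removed 3 did. The median log2 fold change was 0.10 over the 80 genes, with 58 positive and 22 negative, and −0.02 over all genes tested. With the trend on exon length removed these medians were 0.06 and 0.02, so that the distance between them fell from 0.11 to 0.04. The 3 values of a group did not overlap the other group's in 15 genes with higher and 3 with lower levels in the BAF155/170-deficient libraries (18.8% and 3.75%, beside 15.1% and 16.4% of all genes).

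The highly counted members had the median log2 fold change of all genes with as many counts. Among the 39 members with a mean of at least 50 CPM the median log2 fold change was 0.15 with 38 of 39 positive, and among the 2600 genes tested at that level it was also 0.15 with 2238 positive. All 6 genes that rose were in this class, in which 18.1% of all genes rose and 1.85% fell by the same rule. Groups did not overlap upward in 13 of the 39, beside 48.6% of all genes of the class. The 21 members with 10 to 50 CPM had a median of 0.03 (all genes 0.01), and the 20 members tested under 10 CPM had a median of −0.07 (all genes −0.24).

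**Figure D2:**
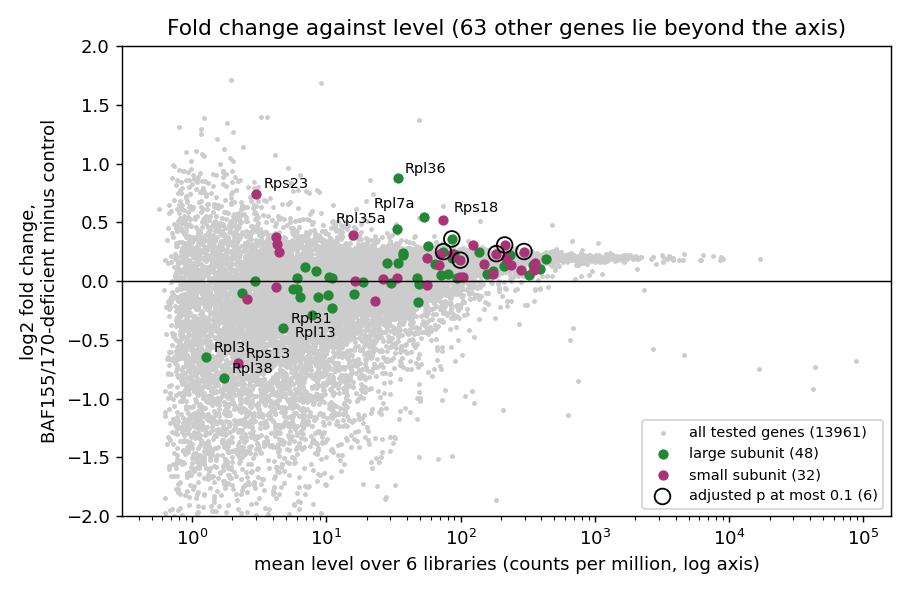
Log2 fold change (vertical axis, BAF155/170-deficient minus control) against the mean level in CPM (horizontal log axis) for all tested genes (grey) and the 48 large and 32 small subunit genes (coloured), with circles around the 6 that rose and the 5 highest and 5 lowest named. Most members lie within the cloud of the other genes at their level while Rpl36, Rpl7a and Rps18 lie at or above its upper edge, and 63 other genes beyond a log2 fold change of 2 are not drawn.

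Among the small subunit genes the 4 that rose did so by little. Rps14, a protein of the 40S platform whose loss impairs red cell formation in patients, had 263, 261 and 289 CPM in controls and 316, 316 and 335 CPM in BAF155/170-deficient libraries, so every BAF155/170-deficient library was above every control (log2 fold change 0.25, SE 0.06, adjusted p = 0.0672). Rps2, which lines the mRNA entry channel, had 174, 172 and 163 CPM against 210, 181 and 207 CPM (0.23, SE 0.07, adjusted p = 0.0833). With its 17 copies added, the log2 fold change of Rps2 was 0.13 (SE 0.06, adjusted p = 0.191), which no longer passed the test. Rps4x, an X-linked protein of the 40S body, had 193, 189 and 189 CPM against 239, 201 and 266 CPM (0.31, SE 0.09, adjusted p = 0.0870). In Rps2 and Rps4x the groups did not overlap, and deficient replicate 2 was the lowest of its group. Rps3a1 had 93.5, 92.2 and 94.3 CPM against 102, 104 and 111 CPM, again without overlap (0.18, SE 0.06, adjusted p = 0.0977). The median over the 32 small subunit genes was 0.15, with 27 positive. All 4 that rose had at least 50 CPM, a level at which 18.1% of all genes rose and 2238 of 2600 were positive.

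In the mRNA channel and decoding centre all 7 listed genes had positive log2 fold changes with a median of 0.15, and Rps2 and Rps14 rose. The median was also 0.15 over all genes tested at 50 CPM or more, of which 2238 of 2600 were positive. Rps3, which forms part of the entry channel and shares no 100-base word with another gene, had 332, 343 and 346 CPM in controls and 355, 363 and 371 CPM in BAF155/170-deficient libraries. Rps9, its neighbour in the channel, had 340, 328 and 357 CPM against 366, 373 and 400 CPM. In both the groups were separate by a small margin, and the log2 fold changes of 0.09 (SE 0.055, adjusted p = 0.297) and 0.15 (SE 0.06, adjusted p = 0.139) did not pass the test. Rps23, which sits in the decoding centre and had only 12 to 84 counts per library, had 2.33, 1.60 and 2.70 CPM against 4.06, 3.29 and 3.98 CPM (0.74, SE 0.27, adjusted p = 0.117). All 11 genes of the 40S head were positive as well with a median of 0.23, but 0 of them passed the test. The head gene Rps18 had 57.9, 60.9 and 62.0 CPM in controls and 96.5, 61.1 and 102 CPM in BAF155/170-deficient libraries (0.52, SE 0.20, adjusted p = 0.168). Deficient replicate 2 was thus within the range of the controls.

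Over the 48 tested genes of the large subunit the median was 0.06, with 31 positive, and 2 genes rose. Of all genes tested 4.18% rose, and of those at 50 CPM or more 18.1%. Rpl18 had 70.9, 68.9 and 64.7 CPM in controls and 83.9, 71.6 and 87.4 CPM in BAF155/170-deficient libraries (0.25, SE 0.08, adjusted p = 0.0950). The groups did not overlap, but deficient replicate 2, with 71.6 CPM, was only just above the highest control, with 70.9 CPM. The P stalk recruits the elongation factors to the ribosome, and its 3 genes were positive but were not called. Its scaffold Rplp0 had 399, 386 and 417 CPM in controls and 457, 427 and 489 CPM in BAF155/170-deficient libraries, without overlap (0.19, SE 0.07, adjusted p = 0.104). Rplp1 had 373, 348 and 417 CPM against 385, 439 and 397 CPM, and Rplp2 had 89.4, 92.4 and 97.8 CPM against 87.6, 99.7 and 96.7 CPM. The groups overlapped in both of these acidic stalk proteins, with log2 fold changes of 0.10 (SE 0.08, adjusted p = 0.425) and 0.02 (SE 0.07, adjusted p = 0.862). Rpl8, which lies beside the peptidyl transferase centre, had 307, 328 and 347 CPM against 351, 363 and 366 CPM (0.14, SE 0.06, adjusted p = 0.180). The exit tunnel genes had a median of 0.02 over 8 tested, and those of the peptidyl transferase and intersubunit face a median of 0.10 over 6, with 0 called in either list.

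Rpl5 and Rpl11 form with the 5S RNA a particle that binds Mdm2 when ribosome assembly stalls. Rpl5 had 6.05, 5.87 and 5.40 CPM in controls and 6.64, 4.02 and 5.87 CPM in BAF155/170-deficient libraries (−0.07, SE 0.23, adjusted p = 0.878). Rpl11 had 6.05, 10.5 and 8.02 CPM against 8.59, 7.50 and 9.85 CPM (0.09, SE 0.21, adjusted p = 0.819). Both overlapped, and both rest on 44 to 208 counts per library. Rpl11 had 10.1 CPM per kb and its copy Gm10288 had 235 CPM per kb. The log2 fold changes of Gm15500, the copy of Rpl5, and of Gm10288 were 0.07 (SE 0.07, adjusted p = 0.562) and −0.01 (SE 0.07, adjusted p = 0.961).

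**Figure D3:**
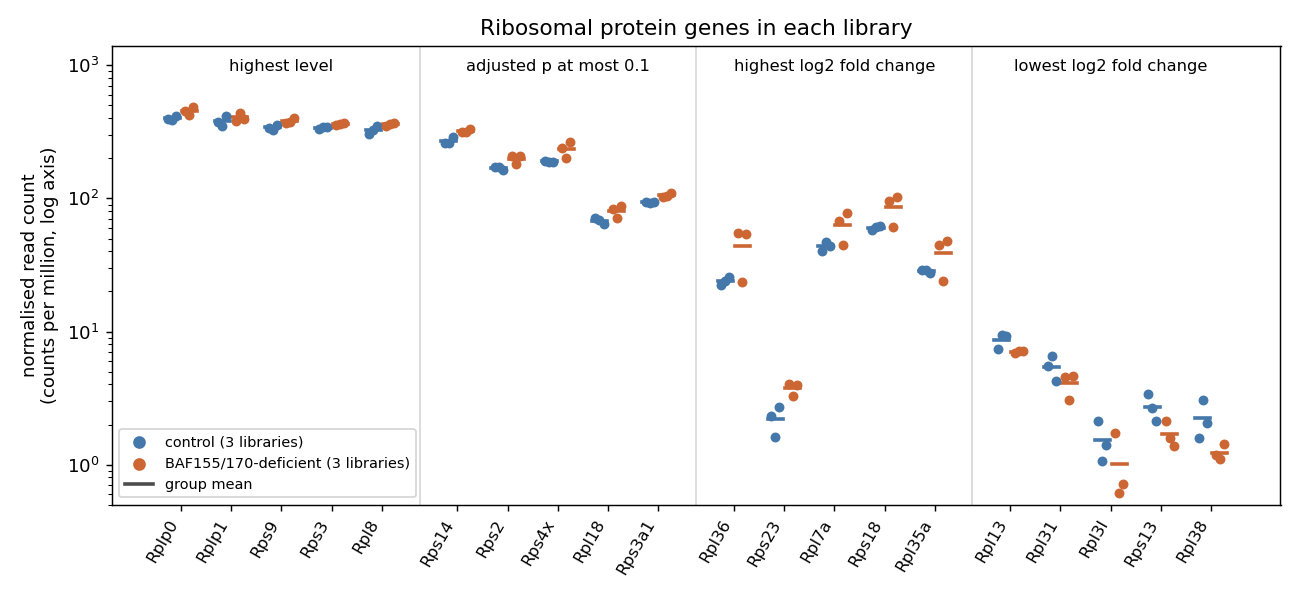
Level of each library (points, CPM on a log axis) and group mean (short lines) for the 5 genes with the most CPM, 5 of the 6 that rose, and the 5 with the highest and the 5 with the lowest log2 fold change. In Rpl36, Rpl7a, Rps18 and Rpl35a deficient replicates 1 and 3 stand above the controls and deficient replicate 2 does not.

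In 4 of the 5 genes with the highest log2 fold changes the BAF155/170-deficient libraries differed widely among themselves. Rpl36 had 22.4, 23.9 and 25.9 CPM in controls and 54.8, 23.6 and 54.1 CPM in BAF155/170-deficient libraries (0.87, SE 0.37, adjusted p = 0.215). With its 4 copies added, the log2 fold change of Rpl36 was 0.41 (SE 0.14, adjusted p = 0.110). Rpl7a, which takes part in forming the 60S subunit, had 40.4, 46.7 and 43.6 CPM against 67.5, 44.9 and 78.2 CPM (0.55, SE 0.21, adjusted p = 0.166). Rpl35a, another gene mutated in Diamond-Blackfan anaemia, had 28.8, 28.8 and 27.8 CPM against 44.3, 24.1 and 47.6 CPM (0.45, SE 0.27, adjusted p = 0.348). In these 3 genes and in Rps18 deficient replicates 1 and 3 lay above every control while deficient replicate 2 lay within or below them.

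The same arrangement was found beyond these genes. In 23 of the 80 genes (28.7%) deficient replicates 1 and 3 were above all 3 controls and deficient replicate 2 was not, beside 4.66% of all genes tested and 4.38% of all genes at 50 CPM or more. The other arrangements had 5 genes in which deficient replicate 1 and 1 gene in which deficient replicate 3 was the library not above the controls (6.25% and 1.25%, beside 7.44% and 2.18% of all genes and 18.7% and 1.04% of all genes at 50 CPM or more). All 5 of the former had under 20% shared words. Of the 23 genes, 21 had at least 20% of their 100-base words in another gene, as did 58 of the 80 tested (72.5%). Among the 124 tested copies of the ribosomal protein genes 35 showed the pattern (28.2%), whereas among 76 mitochondrial ribosomal protein genes 3 did (3.95%) and among 58 ribosome biogenesis factors 1 did (1.72%). The count was made after the pattern had been seen, it was not tested, and what sets deficient replicate 2 apart was not tested either. Of the 6 genes that rose, 1 is among the 23. In Rpl18, Rps2 and Rps4x, also of the 6, deficient replicate 2 was above every control but the lowest of its group. In Rps14 and Rps3a1 deficient replicate 1 was the lowest.

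The spread between the BAF155/170-deficient libraries followed the shared sequence in the same way. The median SD of log2 CPM between them was 0.081 over the tested genes under 20% shared, 0.137 from 20% to 50% and 0.264 at 50% or more, and between the controls it was 0.073, 0.106 and 0.137. Rows with more shared sequence also had fewer counts, which widens the spread. Among the 39 genes with at least 50 CPM the Spearman rho between the shared percentage and the SD was 0.67 for the BAF155/170-deficient and 0.14 for the control libraries, given as a description over genes that share 6 libraries.

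**Figure D4:**
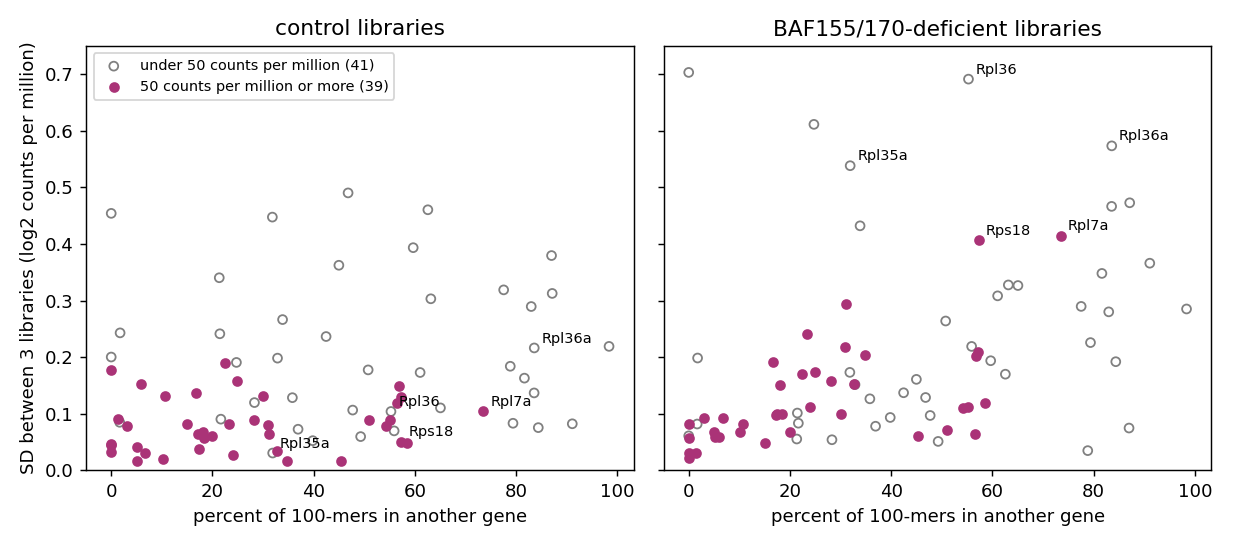
SD of log2 CPM between the 3 libraries of a group (vertical axis) against the percent of the gene's 100-base words that occur in another gene (horizontal axis), for controls (left) and BAF155/170-deficient libraries (right), with each point a ribosomal protein gene and filled points those with at least 50 CPM. The filled points rise with the shared percentage on the right, where the rho over them is 0.67, and not on the left, where it is 0.14.

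The 5 genes with the lowest log2 fold changes all had under 10 CPM. Rpl38 had 1.59, 3.07 and 2.05 CPM in controls and 1.17, 1.10 and 1.42 CPM in BAF155/170-deficient libraries, from 15 to 30 counts per library (−0.83, SE 0.36, adjusted p = 0.165). Its groups did not overlap, yet Rpl38-ps2 with the same coding sequence had 64.8 to 77.9 CPM and differed by 0.05 (SE 0.07, adjusted p = 0.705). Rps13 had 3.40, 2.67 and 2.13 CPM against 2.11, 1.58 and 1.37 CPM (−0.70, SE 0.32, adjusted p = 0.187). Rpl13 had 7.43, 9.34 and 9.25 CPM against 6.88, 7.19 and 7.15 CPM (−0.29, SE 0.17, adjusted p = 0.274). Rpl38, Rps13 and Rpl13 were the 3 tested genes whose BAF155/170-deficient values all lay below the controls, and with the copies added their log2 fold changes became 0.00, 0.10 and 0.21. Rpl31, of the exit tunnel, had 5.52, 6.54 and 4.26 CPM against 4.53, 3.05 and 4.64 CPM (−0.40, SE 0.25, adjusted p = 0.326) and 0.03 with its copies. Rpl3l, a muscle paralogue of Rpl3 without a copy, had 8 to 22 counts per library and a log2 fold change of −0.65 (SE 0.49, adjusted p = 0.413).

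Of the 6 genes with mouse mutants in skeleton or pigment 0 were called, and all 6 are named here although the rule for named genes did not ask for each. Besides Rpl38, Rps19 (dark skin) had 63.3, 64.5 and 66.4 CPM in controls and 77.1, 67.3 and 82.9 CPM in BAF155/170-deficient libraries (0.23, SE 0.08, adjusted p = 0.107), a separation of the groups by under 1 CPM. Rps20 (dark skin) differed by 0.14 (SE 0.08, adjusted p = 0.252), Rpl27a by −0.12 (SE 0.16, adjusted p = 0.675) and Rps7 by −0.17 (SE 0.12, adjusted p = 0.372). Rpl24, the gene of the belly spot and tail mouse, had 5, 4 and 7 counts in the controls and 8, 9 and 11 in the BAF155/170-deficient libraries and was not tested, while its pseudogene Gm9385 had 105 CPM per kb against 0.820 CPM per kb for Rpl24. The 16 Diamond-Blackfan anaemia genes had a median of 0.11, with 11 positive and 0 called.

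The other genes that did not pass the filter were Rpl23a, Rpl39l and Rpl10l. Rpl23a, an exit tunnel protein, had 6, 5 and 9 counts against 4, 7 and 12, and had 0.997 CPM per kb against 59.2 CPM per kb for Rpl23a-ps3. Rpl39l, a germ cell paralogue of Rpl39, had 4, 5 and 8 counts against 9, 7 and 12. Rpl10l, a testis paralogue of Rpl10, had 1 count in control replicate 1 and 0 in the other 5 libraries.

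Ratios of a paralogue to its partner do not depend on how libraries were scaled. They were compared for 6 pairs by an exact permutation test (two-sided), in which 3 against 3 samples cannot give a p below 0.1, with Benjamini-Hochberg adjustment over the pairs. The log2 ratio of Rpl7l1 to Rpl7 was −2.19, −2.19 and −1.95 in the controls and −2.44, −2.24 and −2.39 in the BAF155/170-deficient libraries, so the groups did not overlap (difference −0.25, exact p = 0.1, adjusted 0.6). The differences were 0.20 for Rps27l to Rps27, 0.29 for Rpl36al to Rpl36a, −0.27 for Rps4l to Rps4x, −0.92 for Rpl3l to Rpl3 and −0.04 for Rpl22l1 to Rpl22, with exact p between 0.2 and 0.9 and adjusted values of 0.6 to 0.9. Rps4l is annotated as a pseudogene and is no member, and Rps27 and Rpl36a are among the rows with abundant copies. The copies of Rpl3 had 117 CPM together against 37.4 CPM for its own row. Rpl3 and Rpl7 are also among the 23 genes in which deficient replicates 1 and 3, but not 2, were above all controls. The log2 fold changes of the paralogues themselves were 0.02 for Rpl22l1 (SE 0.21, adjusted p = 0.958), 0.03 for Rps27l (SE 0.10, adjusted p = 0.885), 0.15 for Rpl36al (SE 0.09, adjusted p = 0.270) and −0.03 for Rpl7l1 (SE 0.07, adjusted p = 0.843). Fau, which encodes a ribosomal protein fused to a ubiquitin-like protein and falls outside the symbol rule, differed by 0.37 (SE 0.23, adjusted p = 0.333).

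Summed over the 84 genes, the level was 6672, 6636 and 6935 CPM in controls and 7443, 7153 and 7918 CPM in BAF155/170-deficient libraries, a log2 ratio of 0.15 without overlap. Deficient replicate 2 was again the lowest of its group. Over all 2600 genes tested at 50 CPM or more the median log2 fold change was also 0.15, and in 48.6% of them the groups did not overlap upward. The copies summed to 4695, 4674 and 4715 CPM against 4843, 5088 and 5176 CPM, a log2 ratio of 0.10. The summed level of the 12 macrophage markers did not overlap between the groups either (log2 ratio 0.19), and the part of these cells in the summed level was not tested. When the libraries were scaled to the macrophage markers, the median over the ribosomal protein genes became −0.09 with 0 called (0.00716% of all genes rose), and when they were scaled to the embryonic markers it became 0.99 with 71 called (88.8%, beside 65.8% of all genes). These scalings shift all genes alike, and the median of the ribosomal protein genes stayed above that of all genes by 0.11 with either of them.

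**Figure D5:**
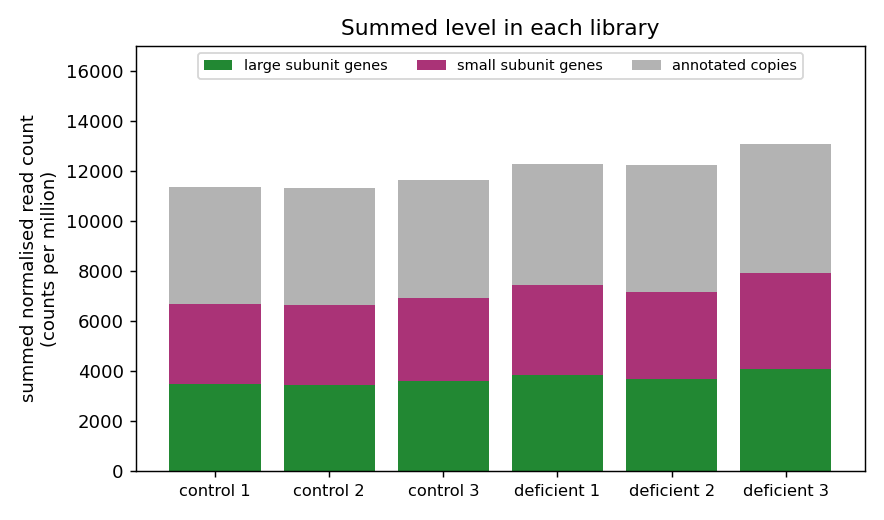
Summed CPM (vertical axis, from 0) of the large subunit genes, the small subunit genes and their annotated copies in each of the 6 libraries. The members sum to between 6636 and 6935 CPM in controls and between 7153 and 7918 CPM in BAF155/170-deficient libraries.

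Genes that act with the ribosome were described in the same fit. Beside the calls in each list, 4.18% of all genes tested rose and 7.75% fell. The 76 tested mitochondrial ribosomal protein genes had a median of 0.05 and 0 called, with Mrpl44 (0.29, SE 0.10, adjusted p = 0.115) and Mrpl27 (0.23, SE 0.10, adjusted p = 0.158) having the smallest p. Of 22 other genes with TOP mRNAs 0 rose and 1 fell, Nap1l1, a histone chaperone (−0.29, SE 0.08, adjusted p = 0.0829), while Hnrnpa1 was at −0.43 (SE 0.14, adjusted p = 0.108). The listed hosts of small nucleolar RNAs had a median of −0.32 over 8 tested and 2 that fell, Snhg5 (−0.66, SE 0.21, adjusted p = 0.0940) and Snhg14 (−1.13, SE 0.36, adjusted p = 0.0966). Whether their transcripts start with a TOP motif was not examined. The initiation factors had a median of 0.08 over 29, with 2 that rose and 1 that fell. Eif2b2, a subunit of the exchange factor for eIF2, rose by 0.28 (SE 0.09, adjusted p = 0.0915), and Eif3a, the largest subunit of eIF3, fell by 0.18 on the log2 scale (SE 0.06, adjusted p = 0.0928).

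Of the 58 genes listed as building the ribosome, 40 had negative log2 fold changes, beside 7305 of all 13961 genes tested. Under 10 CPM, 4671 of all 6609 genes tested were negative, at 10 to 50 CPM 2272 of 4752, and at 50 CPM or more 362 of 2600. The 58 lie in all of these classes and were not split by level. The 58 biogenesis factors had a median of −0.10 (all genes −0.02). Of the 58, 3 fell and 1 rose, beside 7.75% and 4.18% of all genes. Utp20, a component of the small subunit processome, had 15.7 ± 2.42 CPM in controls and 8.94 ± 2.01 CPM in BAF155/170-deficient libraries (mean ± SD, n = 3 each, log2 fold change −0.82, SE 0.18, adjusted p = 0.0558 by edgeR). Ncl, the nucleolar protein nucleolin, had 201 ± 12.6 CPM against 162 ± 12.9 CPM (−0.32, SE 0.07, adjusted p = 0.0614). The RNA polymerase I list had a median of −0.07 over 19 with 1 that fell, Rrn3, its initiation factor (−0.34, SE 0.11, adjusted p = 0.0933), and Polr1a was at −0.27 (SE 0.13, adjusted p = 0.194). The 17 regulators of mTOR and TOP translation had a median of −0.06 and 1 that fell, the translation inhibitor Pdcd4 (−0.77, SE 0.22, adjusted p = 0.0829), with Rptor, a subunit of mTOR complex 1, at −0.23 (SE 0.08, adjusted p = 0.108). In the list of Myc, its partners and its antagonists 1 of 10 rose and 2 fell. Mnt, an antagonist of Myc, rose by 0.28 (SE 0.08, adjusted p = 0.0779), and Mxd4, also an antagonist, was at −0.60 (SE 0.15, adjusted p = 0.0701). Mycn, which like Myc drives ribosome production and is named after its value was seen, was at −1.07 (SE 0.34, adjusted p = 0.0966) with overlapping groups. In the list of nucleolar stress and p53, 1 of 11 rose, Cdkn1a (0.19, SE 0.06, adjusted p = 0.0995), and 1 fell, Mdm4 (−0.23, SE 0.07, adjusted p = 0.0948). Of 12 ribosome quality control genes 3 rose and 0 fell, with Rnf14 (0.20, SE 0.06, adjusted p = 0.0861) and Ascc3 (0.19, SE 0.06, adjusted p = 0.0915) having the smallest p.

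The promoters were searched for motifs, which the symbol rule did not use, and the shares were not tested. RefSeq windows on GRCm38.p6 of 250 bases before to 50 after the start were found for 64 of the 84 genes, 76 windows in all. A run of at least 5 C or T that holds the start base was present in 26.3% of the 76 and in 10.1% of all 32851 windows. Overlapping with it, a C at the start base followed by 4 bases that are C or T was present in 13 of the 76 windows (17.1%) and in 2.5% of all windows. CCGGAAG, on either strand, was present in 35.5% against 8.9%, AAGATGGC in 10.5% against 2.7%, GGGCGG in 60.5% against 35.7%, TATAAA in 9.2% against 13.6% and CACGTG in 10.5% against 7.2%. A match is a description of letters and no evidence of binding. Windows from 20 bases before to 20 from the start on are shown for genes with high, low and little changed values, with capitals marking an unbroken run of at least 5 C or T that holds the start base.
Rps9 (chr7:3704021-3704060): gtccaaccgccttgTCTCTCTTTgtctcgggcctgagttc
Rpl7a (chr2:26910787-26910826): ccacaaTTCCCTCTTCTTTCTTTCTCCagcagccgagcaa
Rps18 (chr17:33955646-33955685): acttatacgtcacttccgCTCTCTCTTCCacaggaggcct
Rpl38 (chr11:114668560-114668599): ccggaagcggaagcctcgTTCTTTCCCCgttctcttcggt
Rps27 (chr3:90213629-90213668): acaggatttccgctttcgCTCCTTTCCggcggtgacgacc
Rps3 (chr7:99483690-99483729): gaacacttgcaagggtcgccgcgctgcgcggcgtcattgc
Rps13 (chr7:116334171-116334210): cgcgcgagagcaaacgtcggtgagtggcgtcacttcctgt
The run was present both in Rps9, Rpl7a and Rps18, which had positive log2 fold changes, and in Rpl38, which had the lowest of the family. Rps3 and Rps13 had no such run at the annotated start. Among windows not shown, those of Rplp0, Rps23 and Rpl35a, which had positive log2 fold changes, also lacked it. So did those of Rpl13 and Rpl3l, with negative values, while that of Rpl31, also negative, held it.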

How the data were processed

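GFP+ NCCs were sorted by the authors from 3 control and 3 BAF155/170-deficient embryos, and strand-specific poly(A) libraries were sequenced in pairs, trimmed (cutadapt 1.18 and FastQC 0.11.7 in the submitters' processing notes), aligned to GRCm38 with STAR and counted with featureCounts. The authors deposited raw counts per gene, which are whole numbers without normalization. The annotation release, strand setting and treatment of multi-mapping reads are not given in the sources used here.

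Identifiers were joined to GENCODE M21 (37902 of 46983 matched with the version, 8586 more without it and 495 unmatched). Counts were fitted in R 4.3.3 with edgeR 4.0.16: filterByExpr (minimum count 10, minimum total 15), TMM, robust quasi-likelihood test with condition as the only term, Benjamini-Hochberg adjustment over 13961 genes. CPM use TMM-scaled library sizes. The common biological coefficient of variation was 12.8%. Depth was 8191219 to 19808620 counts, and CPM of rows with few counts carry the counting error of those counts. Shared sequence is the percent of 50-base or 100-base words of a member's main transcript found in annotated transcripts of another gene. Alternatives were DESeq2 1.42.0, limma 3.58.1 (voom), other scalings and filters, a replicate block, an exon length trend, each library left out, and copies added to their gene. In a simulation of the deficient against control comparison over 13697 genes, 42.7% of genes changed by a fold of 1.5 and 74.5% of those changed by a fold of 2 were called, with 8 false calls.

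The members, gene lists and tests were chosen with earlier results of these data known. Named by rule were Smarcc1 and Smarcc2, members called by the stricter rule, the 5 highest and 5 lowest fold changes, the 5 with the most CPM, the stalk, 5S and paralogue genes, Rpl24 and Rpl38, members that were not tested, the 2 smallest p of each other list, and Fau. Other genes were named after their values were seen. Some genes and a sequence that these rules cover are not reported here.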

Additional observations from a re-analysis of the deposited data

How the results depend on the processing

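The number of ribosomal protein genes that rose, 6, became 14 with DESeq2 (17.5%, beside 6.21% of all genes), 1 with scaling to library totals (1.25%, beside 0.537%), 22 without the filter on low counts (26.2%, beside 4.21%, and 1 by the stricter rule), 1 with a minimum of 2 CPM (1.28%, beside 1.48%) and 20 with the replicate number as a block (25%, beside 11.5%, and 1 by the stricter rule). It ranged from 0 to 16, and by the stricter rule from 0 to 4, when each library was left out in turn, and 0 fell under every alternative. The replicate numbers were not taken as pairs, since same-numbered samples had correlations of 0.03, −0.03 and 0.29. Scaling to library totals gave a log2 ratio of 0.22 for the summed level. Scaling to the embryonic markers gave 71 that rose (also 71 by the stricter rule), a median of 0.99 and a summed log2 ratio of 1.04, and scaling to the macrophage markers gave 0, −0.090 and −0.033. The median of all genes was then 0.88 and −0.20. Apart from the reason built into each alternative (fewer samples, another reference set), the cause was not tested.

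Of 814 log2 fold changes of single genes outside the marker scalings, 788 kept their direction. With the embryonic scaling these became positive: Rpl13 0.60, Rpl31 0.55, Rpl38 0.12, Rpl3l 0.18, Rpl5 0.82, Rpl7l1 0.86, Rps13 0.20, Nap1l1 0.60, Hnrnpa1 0.47, Snhg5 0.18, Eif3a 0.71, Utp20 0.060, Ncl 0.54, Rrn3 0.57, Polr1a 0.65, Pdcd4 0.16, Rptor 0.68, Mxd4 0.26, Mdm4 0.66, Smarcc1 0.23 and Smarcc2 0.78. With the macrophage scaling these became negative: Rpl11 −0.10, Rpl22l1 −0.16, Rpl36al −0.028, Rpl8 −0.047, Rplp1 −0.079, Rplp2 −0.16, Rps27l −0.15, Rps3 −0.093, Rps3a1 −0.0070 and Rps9 −0.032. Rpl7l1 was 0.033 with library totals and 0.021 without the filter, Rpl22l1 −0.0051 and Rplp2 −0.0054 with the minimum of 2 CPM. With the trend on exon length removed, Rpl22l1 was −0.020, Rplp2 −0.018, Rps27l −0.048, Rptor 0.030 and Mdm4 0.049. With copies added, Rpl13 was 0.21, Rpl31 0.031, Rpl38 0.0031, Rpl5 0.080 and Rps13 0.10. With each library left out, Rpl11 ranged from −0.086 to 0.29, Rpl22l1 from −0.088 to 0.16, Rpl5 from −0.21 to 0.12, the Rpl7l1 log2 fold change from −0.081 to 0.013, Rplp2 from −0.013 to 0.073, Rps27l from −0.063 to 0.15 and the log2 ratio of Rpl22l1 to Rpl22 from −0.18 to 0.14. None of these reversed values of ribosomal protein genes had been called except Rps3a1. Rows with under 10 CPM rest on few counts, and depth limits what they can show.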
